A study of Mus musculus with 2 samples.

Results

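Integrins and the proteins that join them to actin were followed in samples labelled bEnd3. That name belongs to an endothelial cell line of BALB/c mice, derived from microvessels of the cerebral cortex and transformed with polyoma middle T antigen. Marker genes that set the arrays apart, and go against the labels in part, are given below. Members were the probe sets annotated to exactly 1 gene whose symbol begins with Itga or Itgb, or is one of 20 named focal adhesion genes (talins, kindlins, vinculin, paxillin, zyxin, the ILK complex, tensins and their partners). The rule took in 114 probe sets for 47 genes, of 34945 probe sets for 18193 genes in all. Of these genes, 24 encode integrin α or β subunits, 18 are focal adhesion genes, and 5 match the name pattern without encoding a subunit that forms the standard receptors (Itgb1bp1, Itgb1bp2, Itgb3bp, Itgbl1 and Itgb2l). Ptk2, Fermt1, Itga11 and Itgad, which the rule also names or would take in, were not analysed here.

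Integrins are receptors of 1 α and 1 β chain that bind matrix proteins or other cells outside the cell and the actin skeleton inside it. Talins and kindlins bind the β chain's tail and switch the receptor on, the complex of ILK, PINCH and parvin sits beside them, vinculin, zyxin and tensins tie the site to actin, and paxillin and p130Cas pass signals on. In endothelium, integrins hold cells to the basement membrane of laminin and collagen IV and to fibronectin, and chains such as α6 and β1 are abundant in brain vessels.

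One group had received an siRNA against Smad4 and the other a control siRNA, in each case from retrovirus made in PLAT-E packaging cells and followed by puromycin selection. Both were grown in medium with 15% serum, and RNA from 2 infections was pooled per group and put on 1 Affymetrix array. Smad4 joins the Smads that TGF-β or BMP receptors phosphorylate and goes with them to target genes. There was 1 array per group and so no replicate, no test between groups was possible, and precision is limited by this number of arrays.

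Several measurements go against the labels or set the arrays apart. Smad4 itself had a quantile-normalized signal of 1165 on the Smad4-siRNA-labelled array and 916 on the control array by its brightest probe set, a log2 ratio of 0.35 (-0.07 as deposited). Because the targeted transcript was not lower in the normalized values, that sample is called the Smad4-siRNA-labelled array throughout (the Control-siRNA sample, the control array), and higher and lower refer to that array's signal over the control array's, not to a response to loss of Smad4. The X-silencing RNA Xist had a signal of 4476 on the Smad4-siRNA-labelled array and 20.7 on the control array, whereas the Y-linked Eif2s3y had 0.349 on the Smad4-siRNA-labelled array and 323.9 on the control array. Of 15 endothelial markers, all reached the floor (the array's median signal) on the control array but only 7 did so on the Smad4-siRNA-labelled array, where 14 were at least 2-fold lower. Pecam1, Cldn5, Tie1, Erg, Emcn, Esam, Tek and Robo4 were the 8 below it there. The signals of all 15 summed to 1050 on the Smad4-siRNA-labelled array and 22789 on the control array. Of 8 measured fibroblast markers, 7 were at least 2-fold higher, with signals over all 11 listed that summed to 21925 on the Smad4-siRNA-labelled array and 988 on the control array, and Col1a1, Col1a2, Col3a1, Dcn, Fbln1 and Twist1 were below the floor on the control array. Of 6 measured pericyte and smooth muscle markers, 4 were at least 2-fold higher and 1 was lower, with sums of 3048 on the Smad4-siRNA-labelled array and 642 on the control array. Of 7 epithelial markers only Epcam was measured, at least 3.58-fold higher. The part of these differences between the arrays in the results on integrins was not tested. Whether both samples were the same cell line, as the labels say, was not tested, and every ratio given here compares the samples as they are. In whole-culture RNA, fewer cells of a type and less RNA per cell cannot be told apart.

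The floor, 22.8 on both arrays after quantile normalization, was each array's median, and a gene counted as measured where its brightest probe set reached it. Where only one array reached the floor, the bright signal over the floor is given as a bound. By this measure 37 of the 47 genes were measured, 27 of them on both arrays, 4 on the Smad4-siRNA-labelled array alone and 6 on the control array alone. As a technical yardstick, the pooled SD of log2 ratios between probe sets for the same gene was 0.47 across 4546 genes, and 0.39 over the 13 member genes with more than 1 probe set measured on both arrays. Errors common to a gene's probe sets, or to a whole array, are not in it.

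As a group the members did not stand out from other genes. Among the 37 measured, 8 were at least 2-fold higher (21.6%, against 16.0% of all measured genes) and 6 were at least 2-fold lower (16.2%, against 15.8%), which are shares near the background. The other 23 lay between, 18 of them measured on both arrays. The median log2 ratio of the 37 was -0.22 with unmeasured sides at the floor, against -0.11 over all 11581 measured genes. Scaling shifted all genes: the median log2 ratio of genes measured on both arrays was -0.15 after quantile normalization, -0.33 as deposited, -0.08 with centring and -0.04 with a lowess trend removed. The member median was 0.19 with centring, so its sign depended on the scaling. Single members measured on both arrays ran from 40.8-fold higher to 25.4-fold lower.

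**Figure D1:**
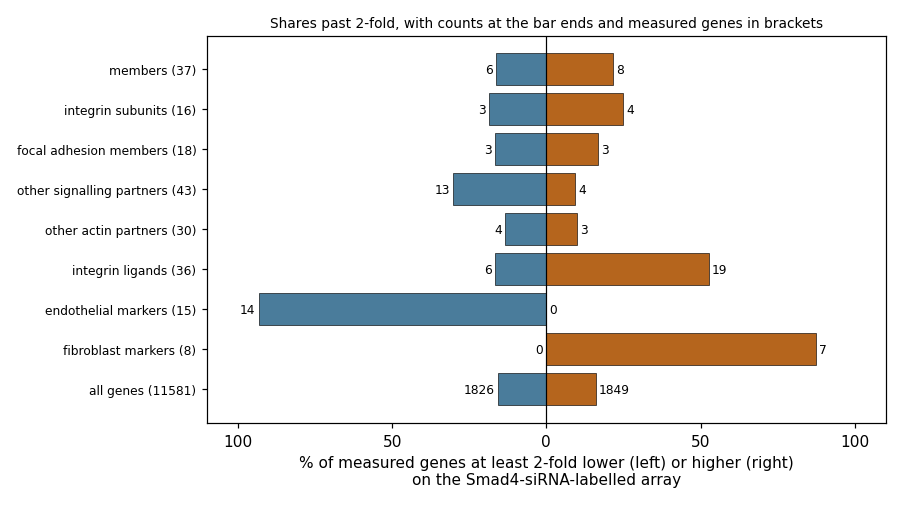
Percent of measured genes at least 2-fold lower (bars to the left) or higher (bars to the right) on the Smad4-siRNA-labelled array than on the control array, for the members, their partners, ligands and markers, and all genes, with counts at the bar ends. The members (6 lower and 8 higher of 37) have bars about as long as those of all genes, whereas 14 of 15 endothelial markers lie to the left and 7 of 8 fibroblast markers to the right.

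Among members measured on both arrays, the β5 chain gene had the largest difference. Itgb5 encodes a partner of αv in a vitronectin receptor. Its brightest probe set had a signal of 1286 on the Smad4-siRNA-labelled array and 31.5, not far above the floor, on the control array, 40.8-fold higher. The other probe set measured on both arrays gave 14.2-fold higher, and the remaining ones gave bounds of 36.6-fold and 31.3-fold higher. All 4 of its probe sets were high on the Smad4-siRNA-labelled array, at 679 to 1286, and near or below the floor on the control array, at 8.17 to 47.8. Itgb8, whose product pairs with αv and activates latent TGF-β, had a signal of 163 on the Smad4-siRNA-labelled array and 5.15 on the control array, at least 7.17-fold higher by its single probe set. Of 5 measured β genes, 2 were at least 2-fold higher and 0 lower, against 16.0% and 15.8% of all measured genes, a count too small to read as a result about the β chains.

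The other β chains differed less. Itgb1, the partner of most α chains, had a signal of 2154 on the Smad4-siRNA-labelled array and 1650 on the control array, a log2 ratio of 0.38. Its 3 probe sets measured on both arrays had log2 ratios of 0.29, 0.38 and 0.74, while the brightest gave 0.06 as deposited. The β1 transcript was therefore bright on both arrays and within 2-fold. Itgb3, the β chain of the platelet integrin and of a vitronectin receptor of growing vessels, had 77.8 on the Smad4-siRNA-labelled array and 113.8 on the control array, a log2 ratio of -0.55. The other Itgb3 probe set had 19.5, below the floor, on the Smad4-siRNA-labelled array and 44.6 on the control array, a bound of 1.96-fold lower. Itgb2, the leukocyte β chain, had 18.1, below the floor, on the Smad4-siRNA-labelled array and 41.3 on the control array, at least 1.81-fold lower. Itgb4, which anchors epithelial cells to laminin, Itgb6 and Itgb7 were below the floor on both arrays, as were their other probe sets.

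Regulatory sequence is shown for the β chains Itgb5 and Itgb8 and the α chain Itga4, which were far apart on the arrays in either direction, and for the actin linker Vcl, which was higher and whose window holds the least common of the motifs found. Each line holds the 250 bases before the annotated start in RefSeq on GRCm38.p6, 5′ to 3′ on the gene's strand. Capitals mark matches, on either strand, to the Smad-binding letters CAGAC or GTCTAGAC, the GC box GGGCGG, the ETS core CCGGAA, the AP-1 letters TGANTCA and the CArG box of serum response factor. The regions are chr16:33829415-33829664 on the plus strand for Itgb5, chr12:119238277-119238526 on the minus strand for Itgb8, chr14:20929148-20929397 on the plus strand for Vcl and chr2:79255176-79255425 on the plus strand for Itga4.
Itgb5: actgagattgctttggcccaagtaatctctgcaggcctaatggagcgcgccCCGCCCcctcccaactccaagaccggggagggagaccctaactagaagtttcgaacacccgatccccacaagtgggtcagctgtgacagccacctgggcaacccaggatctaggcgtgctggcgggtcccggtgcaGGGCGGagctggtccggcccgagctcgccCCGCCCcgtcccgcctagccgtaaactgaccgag
Itgb8: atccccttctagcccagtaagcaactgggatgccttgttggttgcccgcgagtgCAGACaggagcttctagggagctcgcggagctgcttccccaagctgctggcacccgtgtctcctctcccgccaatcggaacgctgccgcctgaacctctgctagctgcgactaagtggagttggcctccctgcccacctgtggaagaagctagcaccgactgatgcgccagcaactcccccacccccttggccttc
Vcl: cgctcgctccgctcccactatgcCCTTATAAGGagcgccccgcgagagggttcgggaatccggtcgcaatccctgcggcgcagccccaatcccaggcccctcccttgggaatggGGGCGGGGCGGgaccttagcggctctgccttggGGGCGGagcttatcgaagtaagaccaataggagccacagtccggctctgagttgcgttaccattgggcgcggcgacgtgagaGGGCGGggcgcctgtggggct
Itga4: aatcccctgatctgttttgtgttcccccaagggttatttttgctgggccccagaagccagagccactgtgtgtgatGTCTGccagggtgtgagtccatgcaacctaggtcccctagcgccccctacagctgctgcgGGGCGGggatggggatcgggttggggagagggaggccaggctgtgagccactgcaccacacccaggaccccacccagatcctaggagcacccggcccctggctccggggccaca
Itgb5 held 3 GC boxes, in either orientation, and no match to CAGAC. Itgb8 and Itga4, which lay on opposite sides, each held 1 match to CAGAC. Vcl held 1 CArG box and 4 GC boxes, a pair of which overlap. A match is a description of letters only.

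Promoter entries matched 34 of the 47 genes, 10 of them past 2-fold. CAGAC, present in 42.2% of 32851 promoter windows, was found in 3 of 7 genes that were higher (Itga1, Itgb8 and Zyx), 2 of 3 that were lower (Itga3 and Itga4) and 8 of 18 between. The 8 letters GTCTAGAC, in 0.167% of windows, were found in none of the 34 members. GGGCGG, in 32.7% of windows, was found in 4 of 7 higher genes, 3 of 3 lower genes and 9 of 18 between. A CArG box, in 1.47% of windows, was found in Vcl, Fermt2 and Itgb6. CCGGAA, in 12.0% of windows, was found in 0 of 7 higher and 1 of 3 lower genes, and TGANTCA, in 6.75%, in Zyx among the higher genes and in 0 of 3 lower genes. A gene with several annotated starts counts if any of them matched.

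Both measured laminin receptor α chains were lower on the Smad4-siRNA-labelled array. Itga6, the main laminin receptor chain of endothelium, had a signal of 70.0 on the Smad4-siRNA-labelled array and 1781 on the control array, 25.4-fold lower. Its other probe set had 17.0, below the floor, on the Smad4-siRNA-labelled array and 773 on the control array, so both were low on the same array. Itga3, another laminin receptor chain, had 131.6 on the Smad4-siRNA-labelled array and 871 on the control array, 6.62-fold lower. Its other probe sets, at 275 and 223 on the control array, were below the floor on the Smad4-siRNA-labelled array. Itga7, the muscle laminin receptor chain, was below the floor on both. Of the laminin genes read on the same arrays, Lama4 was 5.76-fold, Lamb1 2.88-fold, Lamc1 2.30-fold and Lamb2 2.11-fold higher. Lama2 was at least 4.59-fold higher, and Lama1 had a bound of 1.21-fold higher. Lama5, with a log2 ratio of -0.93, lay within 2-fold.

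Itga4, whose product binds Vcam1 and fibronectin, was also lower. Its brightest probe set had a signal of 16.1, below the floor, on the Smad4-siRNA-labelled array and 553 on the control array, at least 24.3-fold lower. The 4 measured probe sets of 5 were all below the floor on the Smad4-siRNA-labelled array, at 1.08 to 16.1, and at 43.7 to 553 on the control array. In contrast, its ligand Vcam1 had 605 on the Smad4-siRNA-labelled array and 83.3 on the control array, 7.26-fold higher, and its ligand Fn1 was 2.77-fold higher.

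Collagen and RGD receptor chains included the higher α genes. Itga8, a receptor chain of mesenchymal and smooth muscle cells, had a signal of 253 on the Smad4-siRNA-labelled array and 19.8, below the floor, on the control array, at least 11.1-fold higher. Its other probe set had 64.3 on the Smad4-siRNA-labelled array and 6.03 on the control array, high on the same array. Beside it, the smooth muscle actin gene Acta2 was 48.8-fold, Pdgfrb at least 42.5-fold, Tagln at least 10.4-fold and Cspg4 at least 5.52-fold higher and Mcam 15.5-fold lower. Of the same marker list, Myh11, Cnn1 and Rgs5 were below the floor on both arrays, and Des reached it on the control array alone. The part of these markers was not tested. Itga1, a collagen receptor chain, had 144.6 on the Smad4-siRNA-labelled array and 35.3 on the control array, 4.10-fold higher, with its other probe set below the floor on both. Itgav, the shared α chain of the vitronectin receptors, had 1843 on the Smad4-siRNA-labelled array and 1366 on the control array, a log2 ratio of 0.43. A dimmer Itgav probe set gave -0.36 and the brightest gave 0.07 as deposited, so αv, unlike β5 and β8, had no clear direction. Itga5, the fibronectin receptor chain, had 331 on the Smad4-siRNA-labelled array and 220.5 on the control array, a log2 ratio of 0.59, with all 4 probe sets between 0.52 and 0.75.

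The remaining α chains had dim signals on both arrays. Itga10, a cartilage collagen receptor chain, had 32.6 on the Smad4-siRNA-labelled array and 43.5 on the control array. The platelet chain Itga2b had 66.5 on the Smad4-siRNA-labelled array and 74.3 on the control array, and the signs of both genes turned with centring, to log2 ratios of 0.04 and 0.19. Itga2, a collagen receptor chain, had 4.48 on the Smad4-siRNA-labelled array and 26.6, just above the floor, on the control array. Itgae, which pairs with β7 in lymphocytes, had 19.0 on the Smad4-siRNA-labelled array and 26.6 on the control array, which gives it a bound of only 1.17-fold. Itga9 had 22.1 on the Smad4-siRNA-labelled array and 21.6 on the control array, both just under the floor, although a dimmer probe set reached 27.2 on the control array. The leukocyte chains Itgal, Itgam and Itgax were below the floor on both arrays. Of the leukocyte and platelet markers, Itgam among them, 5 of 10 were measured, 0 of them at least 2-fold higher and 2 lower. Their sums were 232 on the Smad4-siRNA-labelled array and 1066 on the control array. The defining markers Ptprc and Cd3e were below the floor on both arrays, whereas the macrophage marker Cd68 had 35.2 on the Smad4-siRNA-labelled array and 820 on the control array. The platelet genes differed, with Pf4 at least 3.22-fold lower. Gp1bb had 42.4 on the Smad4-siRNA-labelled array and 17.0, below the floor, on the control array, at least 1.86-fold higher. In all, 2 of 11 measured α genes were higher (18.2%, against 16.0% of all genes) and 3 lower (27.3%, against 15.8%) by at least 2-fold and 6 were between.

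**Figure D2:**
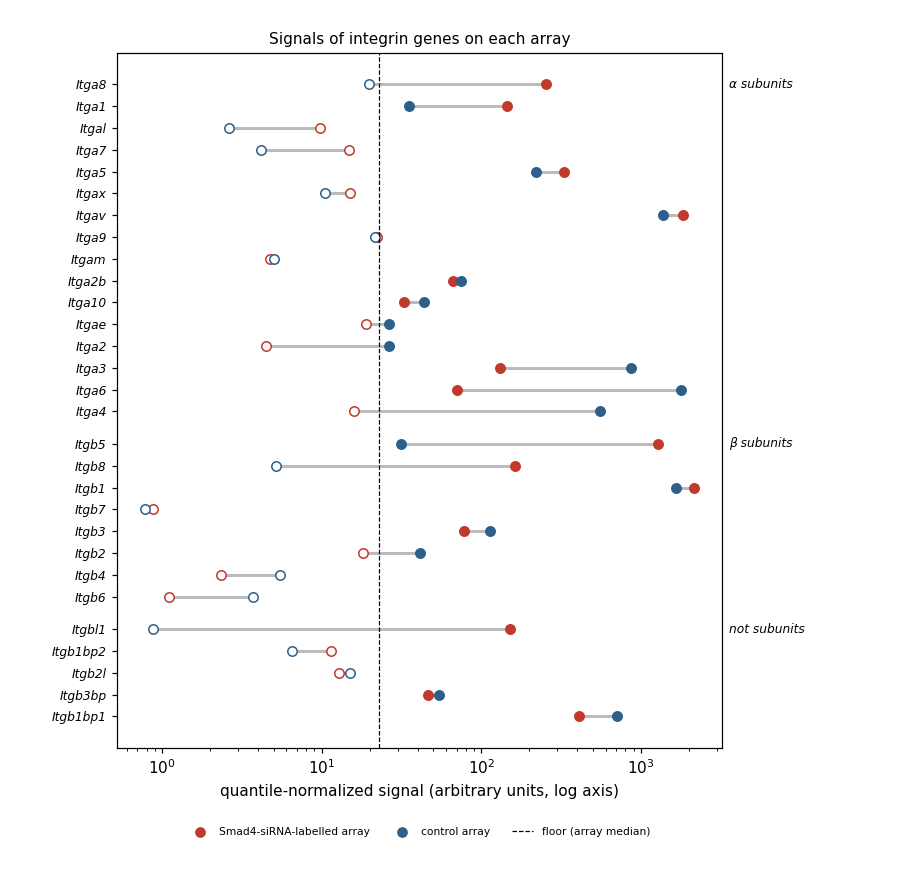
Quantile-normalized signal (log axis) of the brightest probe set of each integrin gene and of the other genes that share the name pattern, on the Smad4-siRNA-labelled array (red) and the control array (blue). Open circles are below the floor of 22.8 (dashed line). Among subunit genes past 2-fold, the bars of Itgb5, Itgb8, Itga8 and Itga1 run the opposite way to those of Itga6, Itga4 and Itga3. Bars run to the signals themselves, also below the floor, so those of Itgbl1 and Itga2 are long too.

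Known receptor pairs were then read by whether both chains were at or above the floor. Of 24 pairs, 22 had probe sets for both chains, and 11 were present by this rule on the Smad4-siRNA-labelled array and 11 on the control array, with 9 shared. The shared pairs were those of Itgb1 with Itga1, Itga3, Itga5, Itga6, Itga10 and Itgav, those of Itgav with Itgb3 and Itgb5, and Itga2b with Itgb3. Itga8 with Itgb1 and Itgav with Itgb8, both receptors for RGD sequences, were found on the Smad4-siRNA-labelled array alone. On the control array alone were Itga2 and Itga4, each with Itgb1. The counts moved with the floor, to 16 on the Smad4-siRNA-labelled array and 14 on the control array with it at the 25th percentile, and to 7 on the Smad4-siRNA-labelled array and 5 on the control array at the 75th. Of the other choices of probe set, leaving out those with an _s, _x or _a suffix gave 11 pairs on each array, with 8 shared. The pairs were not all the same ones. On the control array Itgav with Itgb5 dropped out and Itga9 with Itgb1 came in. The median over probe sets gave 6 pairs on the Smad4-siRNA-labelled array and 9 on the control array. The dimmest measured probe set gave 4 on the Smad4-siRNA-labelled array and 11 on the control array. A transcript above the floor does not show that the receptor was made.

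Of the genes that share the name pattern only, Itgbl1, which encodes a secreted protein with integrin-like EGF repeats, had a signal of 150.4 on the Smad4-siRNA-labelled array and 0.873 on the control array, at least 6.60-fold higher. Itgb1bp1, which encodes the β1-tail binding protein ICAP1, had 409.7 on the Smad4-siRNA-labelled array and 708 on the control array. Its log2 ratio of -0.79 lay within 2-fold but was -1.17 as deposited. Itgb3bp, a centromere protein gene also named for binding β3, had 46.6 on the Smad4-siRNA-labelled array and 54.5 on the control array, and Itgb1bp2 and Itgb2l were below the floor on both arrays.

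Among the activators, one talin was higher and the other was not. Tln2, the talin of muscle and brain, had 185.6 on the Smad4-siRNA-labelled array and 1.77 on the control array, at least 8.15-fold higher. A dimmer probe set, with 47.9 on the Smad4-siRNA-labelled array and 6.59 on the control array, gave a bound of 2.10-fold, and the remaining one was near 1.3 on both. In the other scalings the probe set that is dimmer here was the brightest, and the bound was smaller, at log2 values of 1.21 to 1.53. Tln1, the widespread talin, had 443 on the Smad4-siRNA-labelled array and 547 on the control array, and its 3 probe sets had log2 ratios of -0.31 to -0.79. Fermt2, the kindlin of most adherent cells, had 951 on the Smad4-siRNA-labelled array and 584 on the control array, a log2 ratio of 0.70. Fermt3, the kindlin of blood cells and endothelium, had 18.7 on the Smad4-siRNA-labelled array and 25.5 on the control array, and its other 3 probe sets were below the floor on both.

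In the ILK complex, the PINCH genes differed from each other. Lims2 (PINCH2) had 39.8 on the Smad4-siRNA-labelled array and 189.8 on the control array, 4.77-fold lower by its single probe set. Lims1 (PINCH1), in contrast, had 1663 on the Smad4-siRNA-labelled array and 1736 on the control array, a log2 ratio of -0.06. Its 5 probe sets held both signs, from -0.06 to 0.90. Ilk, the scaffold of the complex, had 825 on the Smad4-siRNA-labelled array and 495 on the control array, a log2 ratio of 0.74 that was 0.36 as deposited. The parvins link ILK to actin. Parva had 407 on the Smad4-siRNA-labelled array and 525 on the control array, a log2 ratio of -0.37. Parvb had 363 on the Smad4-siRNA-labelled array and 435 on the control array, so both were within 2-fold by their brightest probe sets. The other Parvb probe set had 6.98, below the floor, on the Smad4-siRNA-labelled array and 37.7 on the control array. It gave a bound of 1.65-fold lower, and the median over the Parvb probe sets gave a log2 ratio of -1.35. Parvg, the parvin of blood cells, had 14.0 on the Smad4-siRNA-labelled array and 29.4 on the control array by its brightest probe set, a bound of 1.29-fold lower. Its other probe set, at 0.836 on the Smad4-siRNA-labelled array and 52.5 on the control array, gave at least 2.31-fold lower. In all, 0 of 6 genes of the complex were at least 2-fold higher and 1 was lower. Against 16.0% and 15.8% of all measured genes, these counts are too small to read as a result about the complex.

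Among the actin linkers, 2 of 5 genes were at least 2-fold higher and 1 was lower, too few to set against the shares over all genes. Zyx, a LIM protein that gathers where actin pulls on adhesions, had 1984 on the Smad4-siRNA-labelled array and 388 on the control array, 5.11-fold higher, and its log2 ratio was 2.01 as deposited. Its other probe set, with 23.6 on the Smad4-siRNA-labelled array and 10.3 on the control array, gave a bound of only 1.04-fold higher. Vcl, the talin- and actin-binding vinculin, had 2407 on the Smad4-siRNA-labelled array and 995 on the control array, 2.42-fold higher. Both Vcl probe sets were higher, with log2 ratios of 1.27 and 1.46, but as deposited the brighter one gave 0.94, just under 2-fold. Tns1, a tensin that binds β tails and actin, went the other way, with 213.8 on the Smad4-siRNA-labelled array and 474 on the control array, 2.22-fold lower. Its 3 probe sets had log2 ratios of -0.93 to -1.75.

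Tns3 and Lpp depended on the probe set. Tns3 had 1018 on the Smad4-siRNA-labelled array and 1267 on the control array, a log2 ratio of -0.32, but its dimmer probe set, with 65.7 on the Smad4-siRNA-labelled array and 14.0 on the control array, was at least 2.89-fold higher. Lpp, a zyxin relative, had 918 on the Smad4-siRNA-labelled array and 1001 on the control array, a log2 ratio of -0.13. The other 7 Lpp probe sets had log2 ratios of 0.14 to 1.02, so the brightest alone was below 0 after quantile normalization. As deposited, dimmer ones at -0.12 and -0.06 were below 0 as well.

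Of the signalling adaptors, paxillin differed most. Pxn, the scaffold that gathers kinases and GTPase regulators at adhesions, had 1022 on the Smad4-siRNA-labelled array and 2498 on the control array, 2.44-fold lower. Its 3 probe sets had log2 ratios of -1.29, -1.52 and -1.75, all past 2-fold. Its relative Tgfb1i1 (Hic-5), whose full name is transforming growth factor beta 1 induced transcript 1, had 422 on the Smad4-siRNA-labelled array and 259 on the control array, a log2 ratio of 0.71 that was 0.39 as deposited. Bcar1 (p130Cas) had 281 on the Smad4-siRNA-labelled array and 410 on the control array, a log2 ratio of -0.55, and its other probe set gave -0.39. Over the 18 focal adhesion members, all of them measured, 3 were higher and 3 lower by at least 2-fold (16.7% each way, against 16.0% and 15.8% of all genes) and 12 were between.

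**Figure D3:**
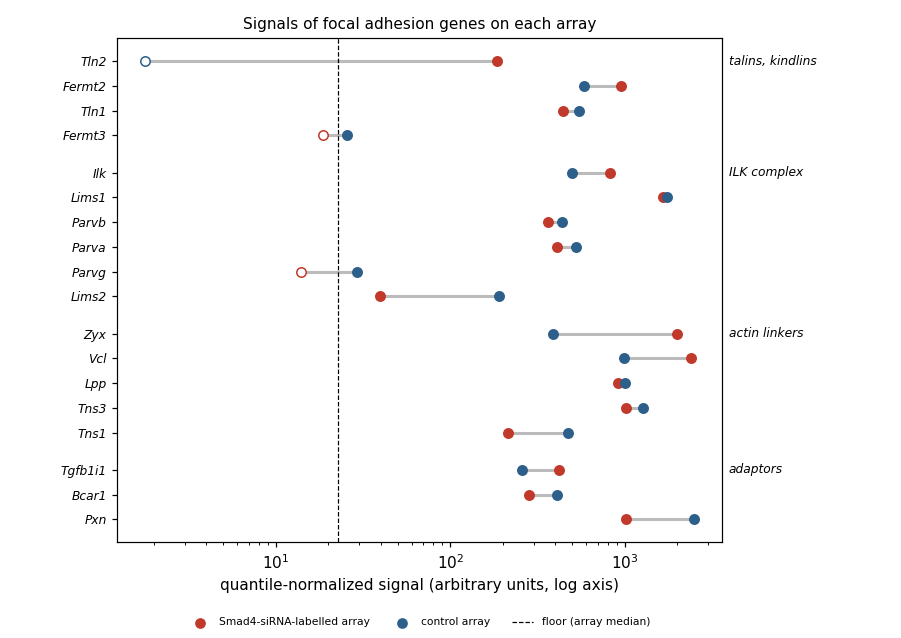
Quantile-normalized signal (log axis) of the brightest probe set of each focal adhesion gene on the Smad4-siRNA-labelled array (red) and the control array (blue), grouped by role, with open circles below the floor of 22.8. Zyx, Vcl and Tln2 lie to the right on the Smad4-siRNA-labelled array, Pxn, Tns1 and Lims2 on the control array, and most other pairs nearly coincide.

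Different probe sets of a gene mostly pointed one way. Of the 13 member genes with more than 1 probe set measured on both arrays, 10 had all of them of one sign after quantile normalization, and Itgav, Lims1 and Lpp had both signs. Tns3, with 1 probe set measured on both arrays, is not counted there, and its other probe set gave a bound of the opposite sign. Of the 14 members past 2-fold, 13 kept that call in all 4 scalings and the other was Vcl. By signals with no floor applied, the sign of 32 of the 37 measured members was the same in all 4. Itga10, Itga2b, Itgb3bp and Lims1, all within 2-fold, changed sign, as did Fermt3, below the floor on the Smad4-siRNA-labelled array. With unmeasured sides at the floor, the bounds of Itga2, Itgae and Parvg also turned with centring, to log2 values of 0.26, 0.26 and 0.12.

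**Figure D4:**
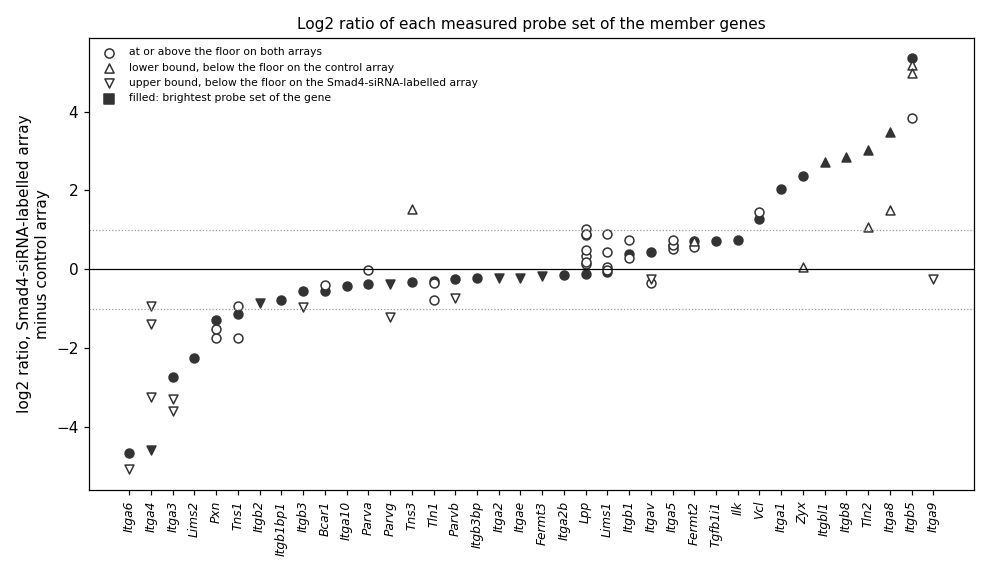
Log2 ratio (Smad4-siRNA-labelled array minus control array) of every probe set of the members that reached the floor on at least 1 array, by gene, with triangles for bounds, filled symbols for the brightest probe set and dotted lines at 2-fold. The 4 probe sets of Itgb5 lie together at the top and those of Itga6 and Itga3 at the bottom, while Tns3 and Lpp show probe sets that differ.

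The wider adhesion machinery was read from lists that leave out the members. Of 43 measured signalling partners, 4 were higher and 13 lower by at least 2-fold, that is 9.30% and 30.2% against 16.0% and 15.8% of all genes, with 26 between and a median log2 ratio of -0.48. The heparan sulphate co-receptor Sdc4, which acts beside fibronectin receptors, had 2054 on the Smad4-siRNA-labelled array and 103.8 on the control array, 19.8-fold higher. The adaptor genes Nck2 and Shc1 were 3.08-fold and 2.74-fold higher, the ILK partner Rsu1 had a log2 ratio of 0.58, and the receptor phosphatase Ptprf was at least 7.28-fold higher. The kinase Ptk2b, a relative of focal adhesion kinase, had a bound of 1.74-fold. At the other end, Kank3, an endothelial member of the talin-binding Kank family, had 39.5 on the Smad4-siRNA-labelled array and 499.6 on the control array, 12.6-fold lower. Cav1 (caveolin-1) was 4.80-fold, Git1, a paxillin-binding protein gene, 4.23-fold and the kinase gene Fyn 3.83-fold lower.

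Actin partners were mostly within 2-fold, as were genes in general. Of 30 measured, 23 lay between, 3 were higher and 4 lower by at least 2-fold. These are 10% and 13.3%, against 16.0% and 15.8% of all genes, and the median log2 ratio was -0.13, against -0.11. Enah (Mena), which extends actin filaments and binds zyxin, had 2197 on the Smad4-siRNA-labelled array and 44.0 on the control array, 49.9-fold higher, whereas its relative Vasp was 2.21-fold lower. Pdlim5 was 2.59-fold higher, Palld and Flnc had log2 ratios of 0.82 and 0.75, and the myosin light chain gene Myl9 was at least 5.63-fold higher, with Nexn at a bound of 1.85-fold. Sorbs2, a vinculin-binding adaptor, had 43.2 on the Smad4-siRNA-labelled array and 1143 on the control array, 26.5-fold lower. Actn1, the α-actinin that crosslinks actin at adhesions, was 2.80-fold and Pdlim1 2.16-fold lower.

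Ligands of integrins were higher in 19 of 36 measured genes (52.8%, against 16.0% of all genes) and lower in 6 (16.7%, against 15.8%) by at least 2-fold, and 11 were between, with a median log2 ratio of 1.13. The collagen genes Col1a2 and Col3a1 were at least 324-fold and 265-fold higher, from signals of 7389 and 6046 on the Smad4-siRNA-labelled array, and both are fibroblast markers as well. The matrix glycoprotein gene Thbs1 was 5.76-fold and Lamb1 2.88-fold higher. Lower were the leukocyte ligand Icam2, at least 52.9-fold, the matrix gene Tnc, at least 31.9-fold, Tgfb1, 5.34-fold, and the junction genes Jam2 and F11r, 4.12-fold and 2.66-fold. Beside these counts stand the fibroblast markers, 7 of 8 of them higher, and the endothelial markers, 14 of 15 lower, and their part was not tested.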

How the data were processed

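Total RNA of bEnd3 cells was hybridised to Affymetrix mouse arrays, 1 array per group with 2 infections pooled, per the labels. The deposited signal intensity of each probe set is linear and came from MAS5 (submitters' processing notes), with version, scaling target and detection calls not given in the sources used here. Of 45101 probe sets, 64 controls were left out, 34945 had 1 gene, 932 had several and 9160 were unnamed here. Names came from the platform annotation, updated by Entrez identifier against RefSeq (GRCm38.p6).

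The log2 signals were quantile normalized, and each array's median (22.8) served as floor. Log2 ratios set the Smad4-siRNA-labelled array over the control array. The brightest probe set by mean log2 signal stood for a gene, and which one that is can differ by setting. With 1 array per group there was no test, and the number past 2-fold describes these arrays. The call rule was tested on simulated data. The members, lists and settings were chosen with earlier results of these data known. Every measured member is named, with the 4 highest and 4 lowest genes and the 2 largest bounds each way of each partner or ligand list. Fn1, Lama1, Lama2, Lamb2, Lamc1, Xist, Eif2s3y and the markers of other cells were picked for naming after values were seen. Alternatives were other scalings, floors at the 25th and 75th percentile, an added 25th percentile, and other choices of probe set. Python 3.11.15, pandas 2.3.3 and statsmodels 0.14.6 (lowess fraction 0.3) were used.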

Additional observations from a re-analysis of the deposited data

How the results depend on the processing

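With the floor at the 75th percentile, members at least 2-fold higher numbered 3 of 28 and integrin subunits 1 of 10, in place of 8 of 37 and 4 of 16, since a higher floor lowers every bound. The share of all genes at least 2-fold higher fell as well, to 12.2% from 16.0%. With the floor at the 25th percentile, 5 of 20 integrin subunits were lower, in place of 3 of 16. Among all genes 17.4% were then lower, in place of 15.8%. Pairs with both chains at or above the floor were then 7 on the Smad4-siRNA-labelled array and 5 on the control array at the 75th percentile, in place of 11 and 11. The median over probe sets gave 6 such pairs on the Smad4-siRNA-labelled array and the dimmest measured probe set 4. All alternatives for the pairs were added after the data were seen. The other counts of members past 2-fold stayed within 1.5 times under the alternatives run. The member median ran from -0.22 to 0.19 and so had no settled sign. Of 316 values of single members under alternatives, 273 moved by less than the SD between probe sets (0.47), 43 moved by more, and 0 of those past 2-fold changed sign. Among them, the bound of Tln2 was 1.28 (log2) as deposited, 1.53 with centring and 1.21 with a lowess trend removed, in place of 3.03. Another probe set was brightest in those scalings. No paired analysis was possible because each group had 1 array. With no replicates, leaving out an array was not possible. Detection calls were not used here, so signals near the floor may hold background.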
